A study of Mus musculus with 16 samples.

Results

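Jaw identity transcription factors were followed through the growth of the mouse first molar. Pou3f3 and Shox2 are listed with the upper jaw and palate. Nkx2-3, Isl1, Gsc, Gbx2 and Pitx1 are listed with the lower jaw and ventral tissues, though Isl1 and Gbx2 are known from other tissues too. The odd-skipped genes Osr1 and Osr2 complete the list. These 9 genes of the 23337 counted were chosen by their CPM: several had been seen to alternate from one library to the next in the same 16 libraries, so the alternation is described and not tested. All 9 passed the filter on low counts. Poly(A) RNA of 16 libraries was sequenced, 8 labelled upper first molar germ and 8 labelled lower first molar germ. There was 1 library of each at each of the stages ED14.5, ED15.0, ED15.5, ED16.0, ED16.5, ED17.0, ED17.5 and ED18.0 (embryonic day). The labels give wild-type male embryos of CD1, an outbred strain. By the labels a library holds the 2 germs, left and right, of 1 embryo, which also gave the other library of its stage. Stage and embryo are therefore one factor, with no second embryo at any stage. The embryos are numbered 1 to 8 from ED14.5 to ED18.0. Embryos 1, 3, 5 and 7 (ED14.5, ED15.5, ED16.5 and ED17.5) are called odd-numbered, and embryos 2, 4, 6 and 8 (ED15.0, ED16.0, ED17.0 and ED18.0) even-numbered.

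A jaw is patterned when its primordium is still a pharyngeal arch. Endothelin released in the ventral part of the first arch turns on Dlx5 and Dlx6 and, through them, the genes of the lower jaw, while mesenchyme that does not receive it keeps the upper jaw programme, of which Pou3f3 is a part. In the tooth germ several of these factors act in the mesenchyme that faces the dental epithelium, and others in the epithelium itself.

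The members did not follow the tooth labels alone. Pou3f3 and Nkx2-3 split the libraries of each label into odd-numbered and even-numbered embryos, and in opposite directions, so each library is called by its label below. The male label did not match either, since Xist, the RNA of the inactive X chromosome of female cells, had 1499 to 1831 CPM in labelled upper and 431.8 to 1928 in labelled lower libraries, with 2 counts in all on the Y-linked genes Eif2s3y, Kdm5d, Uty and Ddx3y. CPM are counts scaled to a common total of gene counts. The gene counts of a library totalled 33146758 to 38584429 in labelled upper and 35918529 to 44565205 in labelled lower. Every value by odd or even number, slope and block takes the labels of tooth, stage and embryo as given. Libraries that the labels pair in one embryo deviated together, with correlations of 0.121 to 0.279, but only 4 of 8 matched their own embryo best. Paired libraries also share the stage and the odd or even set, so these correlations cannot show that they come from one embryo. For the same reason they cannot show whether a library was misassigned, which was not tested. Tooth germ markers were present in all 16 libraries. Pax9, a dental mesenchyme factor, measured 130.5 to 144.1 CPM in labelled upper and 66.0 to 139.1 CPM in labelled lower.

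Promoters of Pou3f3 and Nkx2-3 are shown because these genes separated the odd-numbered from the even-numbered embryos most widely and in opposite directions. They are RefSeq sequences of GRCm38.p6, the build mm10, from 250 bases before to 50 bases after the start of the gene, written in the direction of transcription. Capitals mark the CCAAT box, the letters CCAAT on either strand, a motif that was picked after the sequences had been read. In Nkx2-3 a pair of boxes on opposite strands overlaps.
Pou3f3, chr1:42695518-42695817, plus strand: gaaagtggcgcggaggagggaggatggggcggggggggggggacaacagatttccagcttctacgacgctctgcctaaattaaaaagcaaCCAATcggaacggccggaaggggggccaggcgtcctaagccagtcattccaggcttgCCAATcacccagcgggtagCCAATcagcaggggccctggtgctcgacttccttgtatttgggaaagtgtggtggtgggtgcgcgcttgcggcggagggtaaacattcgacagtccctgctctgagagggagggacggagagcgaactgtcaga
Nkx2-3, chr19:43612075-43612374, plus strand: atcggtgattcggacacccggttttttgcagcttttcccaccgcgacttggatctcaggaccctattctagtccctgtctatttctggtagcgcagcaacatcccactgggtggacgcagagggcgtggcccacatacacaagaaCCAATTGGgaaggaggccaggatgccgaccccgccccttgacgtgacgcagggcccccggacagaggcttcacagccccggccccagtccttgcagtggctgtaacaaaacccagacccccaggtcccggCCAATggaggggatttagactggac
Each promoter held 3 CCAAT boxes, a motif present in 37.4% of the 32851 mouse promoters of this length. GC content was 60.3% for Pou3f3 and 60.0% for Nkx2-3, against a median of 52.7% over all promoters. Neither window held the homeodomain core TAATTA, the Nkx2 core CAAGTG, the POU octamer ATGCAAAT or the TATAAA box on either strand, which were present in 5.29%, 13.6%, 1.74% and 13.6% of all promoters. Promoters were also matched for Shox2, Isl1, Gsc and Gbx2, and not for Pitx1, Osr1 and Osr2. TATAAA was found in Shox2 and Gsc, CAAGTG in Gbx2, and CCAAT in Isl1.

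Pou3f3, a POU-domain factor of the maxillary arch, was lower in odd-numbered than in even-numbered embryos under both labels. In labelled upper it measured 9.97, 8.24, 6.45 and 10.1 CPM in odd-numbered embryos and 131.5, 119.2, 111.6 and 109.5 CPM in even-numbered embryos, in order of stage. The libraries labelled lower had 4.89, 5.14, 5.46 and 4.45 CPM in odd-numbered embryos and 86.2, 70.7, 64.6 and 60.1 CPM in even-numbered embryos. The groups did not overlap in either label. The mean was 13.6-fold lower in odd-numbered embryos in labelled upper and 14.1-fold lower in labelled lower, and each of the 8 neighbouring pairs, an odd-numbered embryo with the even-numbered one after it, differed by 10.8-fold to 17.6-fold. The highest odd-numbered library of either label, at 10.1 CPM, lay below the lowest even-numbered one, at 60.1 CPM.

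Nkx2-3, a homeobox gene needed in the mouse for the spleen, the sublingual gland and molar cusps, ran the other way. In labelled upper it measured 53.1, 56.2, 46.7 and 39.4 CPM in odd-numbered embryos, and had 0, 1, 2 and 3 counts in even-numbered embryos. Among libraries labelled lower it reached 31.5, 31.3, 22.4 and 19.2 CPM in odd-numbered embryos, and had 5, 3, 0 and 0 counts in even-numbered embryos. Every odd-numbered library was thus far above every even-numbered one. Odd-numbered embryos held 7043 (upper) and 3986 (lower) counts, and even-numbered embryos 6 and 8, for which exact 95% Poisson intervals are 2.20 to 13.1 and 3.45 to 15.8 counts. The summed counts per depth were 1156-fold higher in odd-numbered embryos in labelled upper (95% interval 530.7 to 3150) and 528.1-fold higher in labelled lower (267.7 to 1224). Intervals cover counting error only. The count of 0 in labelled upper embryo 2 allows up to 0.0839 CPM. Per kilobase of annotated exon, on which genes can be compared, Nkx2-3 averaged 23.1 CPM in odd-numbered embryos labelled upper and Pou3f3 1.17, while in even-numbered embryos of that label Nkx2-3 averaged 0.0206 and Pou3f3 15.9.

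Gsc, the homeobox gene goosecoid, which acts in lower jaw mesenchyme, and Pitx1, a homeobox gene of the lower jaw and hindlimb, were also higher in odd-numbered embryos. Gsc measured 8.02, 5.70, 4.10 and 3.48 CPM in odd-numbered and 2.69, 2.20, 1.68 and 0.573 CPM in even-numbered embryos labelled upper. In labelled lower Gsc measured 4.30, 2.60, 2.67 and 3.42 CPM in odd-numbered and 0.673, 1.24, 1.25 and 1.24 CPM in even-numbered embryos. The groups did not overlap, and the mean of odd-numbered embryos was 2.98-fold higher in labelled upper and 2.95-fold higher in labelled lower. Pitx1, the most abundant member per kilobase, measured 260.3, 310.7, 257.4 and 262.5 CPM in odd-numbered and 157.0, 185.8, 137.0 and 142.7 CPM in even-numbered embryos labelled upper. In labelled lower Pitx1 measured 254.9, 223.9, 244.6 and 223.4 CPM in odd-numbered and 161.6, 159.8, 142.6 and 151.3 CPM in even-numbered embryos. Its groups did not overlap either, and the means of odd-numbered embryos were 1.75-fold and 1.54-fold higher in labelled upper and labelled lower.

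Shox2, a homeobox gene of anterior palate mesenchyme, moved with Nkx2-3, Gsc and Pitx1 in sign but little in size. It measured 31.3, 27.0, 28.2 and 20.6 CPM in odd-numbered and 27.0, 25.8, 21.4 and 18.8 CPM in even-numbered embryos labelled upper, where the groups overlapped. The labelled lower values were 14.7, 12.6, 13.6 and 12.2 CPM in odd-numbered and 11.7, 10.7, 11.8 and 11.8 CPM in even-numbered embryos, which did not overlap. It was higher in the odd-numbered embryo of all 8 pairs, by 1.04-fold to 1.32-fold.

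Osr1 and Osr2 encode zinc finger factors, and mouse Osr2 limits teeth to one row. Osr1 measured 32.2, 28.0, 20.2 and 16.7 CPM in odd-numbered and 31.7, 31.1, 29.4 and 35.1 CPM in even-numbered embryos labelled upper. Its labelled lower values were 15.7, 13.2, 13.4 and 14.1 CPM in odd-numbered and 23.7, 27.3, 28.5 and 22.0 CPM in even-numbered embryos. Its groups overlapped in labelled upper only, and the even-numbered embryo was higher in 7 of 8 pairs. Osr2 measured 134.8, 138.1, 157.0 and 144.2 CPM in odd-numbered and 109.8, 119.1, 131.4 and 107.3 CPM in even-numbered embryos labelled upper, without overlap. Labelled lower libraries had 124.6, 90.6, 79.3 and 72.9 CPM in odd-numbered and 115.4, 116.7, 89.7 and 86.7 CPM in even-numbered embryos, with overlap. The sign of Osr2 thus differed between the labels, 1.23-fold higher in odd-numbered embryos labelled upper and 1.11-fold lower in those labelled lower.

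Gbx2, a homeobox gene known from the boundary of midbrain and hindbrain and from the pharyngeal arches, changed along the stages as well. It measured 0.617, 0.389, 1.13 and 2.80 CPM in odd-numbered and 0.700, 0.244, 0.785 and 3.92 CPM in even-numbered embryos labelled upper, so both sets had their highest level at the last stage. In labelled lower it measured 3.17, 1.97, 0.919 and 0.475 CPM in odd-numbered and 8.19, 5.49, 3.59 and 1.93 CPM in even-numbered embryos, with the highest level of each set at the first stage. The even-numbered embryo was higher in 2 of 4 pairs labelled upper and in all 4 labelled lower. Isl1, a LIM homeobox gene of motor neurons, heart and oral epithelium, was near the detection limit with 60 counts in all 16 libraries. It had 3, 2, 6 and 0 counts in odd-numbered and 15, 10, 5 and 4 counts in even-numbered embryos labelled upper. In labelled lower it had 2, 0, 0 and 2 counts in odd-numbered and 4, 2, 2 and 3 counts in even-numbered embryos. Those counts are too few to describe a level beyond a difference between label sums of 45 and 15.

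**Figure D1:**
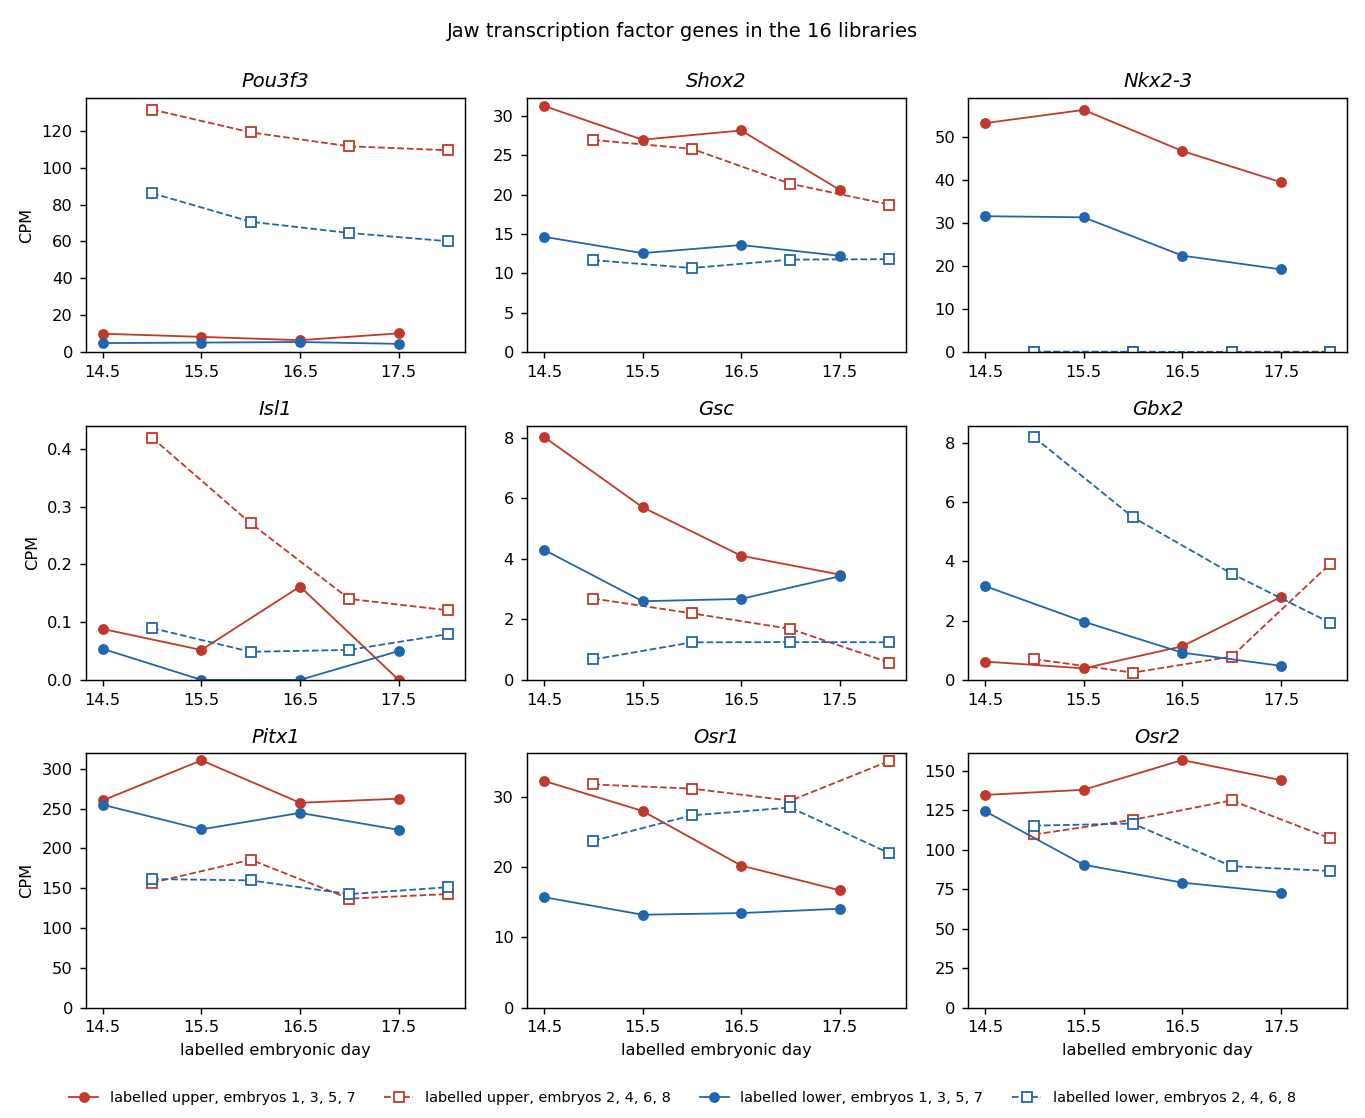
CPM (y axis, from 0) of each of the 9 genes by labelled embryonic day (x axis), red for libraries labelled upper and blue for labelled lower, filled circles for odd-numbered and open squares for even-numbered embryos, each point 1 library. Pou3f3 lies at 4.45 to 10.1 CPM in odd-numbered and 60.1 to 131.5 CPM in even-numbered embryos, while Nkx2-3 is at most 0.112 CPM in even-numbered embryos.

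The neighbouring pairs are read against all 16287 genes kept. A gene was higher in the odd-numbered embryo of all 8 pairs for 8.18% of genes and in the even-numbered embryo for 9.82%. Among the members, Shox2, Nkx2-3, Gsc and Pitx1 were higher in the odd-numbered embryo in all 8 pairs, and Pou3f3 in the even-numbered embryo. Odd-numbered and even-numbered embryos did not overlap in both labels, with odd-numbered embryos higher, for 0.528% of genes and for 3 members, Nkx2-3, Gsc and Pitx1. The other direction held for 1.8% of genes and for 1 member, Pou3f3. More than a 2-fold difference in the same direction in both labels was seen for 0.153% of genes with odd-numbered embryos higher, and for 0.669% with even-numbered embryos higher. Within labelled upper alone, 3.31% of genes had odd-numbered embryos higher without overlap and 4 members did (Nkx2-3, Gsc, Pitx1 and Osr2), and 6.24% had even-numbered embryos higher, as did 1 member, Pou3f3. Within labelled lower the shares were 2.49% and 5.02% of genes, with 4 members (Nkx2-3, Gsc, Pitx1 and Shox2) and 2 members (Pou3f3 and Osr1). Because the members were listed for this alternation, the counts describe them and nothing is read from the comparison with all genes. Each sequencing lane named in the deposited tables held 2 odd-numbered and 2 even-numbered embryos of one label, and within the lanes Pou3f3 was 13.8-fold, 13.3-fold, 15.6-fold and 12.6-fold lower in odd-numbered embryos (labelled upper early, upper late, lower early and lower late). Flow cell followed the tooth label, so that flow cell and label cannot be told apart.

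**Figure D2:**
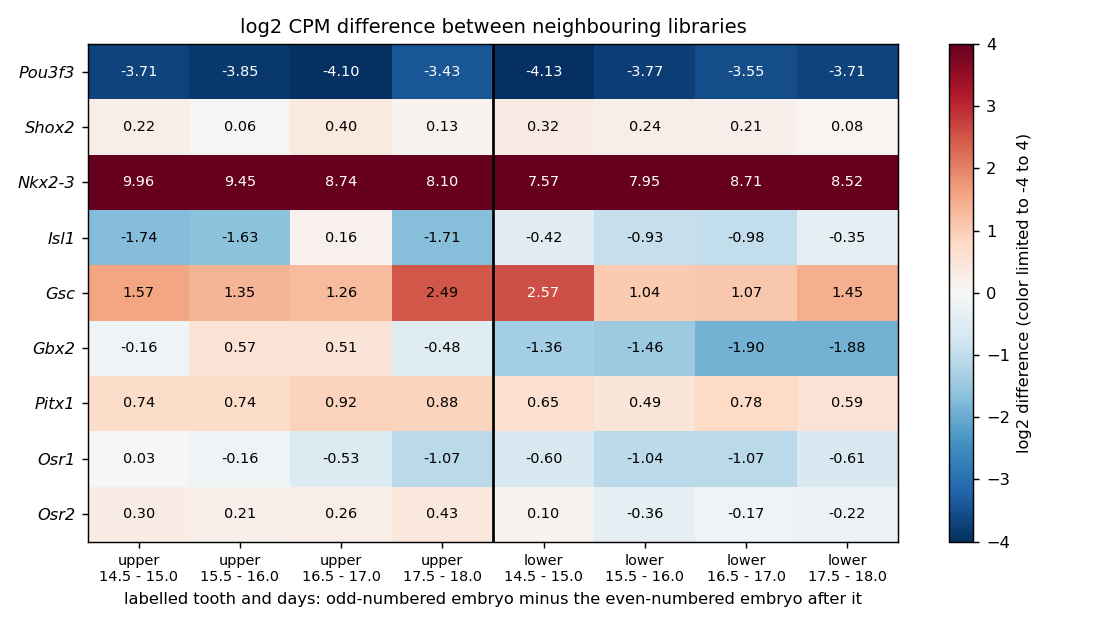
Log2 CPM difference (prior count of 2; color, limited to -4 to 4) between each odd-numbered embryo and the even-numbered embryo after it, for the 9 genes (rows) in 4 pairs labelled upper and 4 labelled lower (columns). Pou3f3 is negative in all 8 columns and Nkx2-3, Gsc, Pitx1 and Shox2 positive, while Osr2 is positive in the 4 upper columns and in 1 of the 4 lower columns.

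Whether the size of the difference between odd-numbered and even-numbered embryos differed between the labels was tested for all genes. The CPM that form this contrast had been looked at, by label and by odd or even set, when the members were listed. The members' p-values in it therefore describe them and are not independent support. No gene of 16287 was called (edgeR quasi-likelihood, Benjamini-Hochberg adjusted, threshold 0.05; 958 genes had an unadjusted p under 0.05, DESeq2 called 112 genes, and edgeR called 34 without embryo 1 and 4 without embryo 2), a background of 0%. Among the members the smallest unadjusted p was that of Osr2, with a difference of log2 differences (labelled upper minus labelled lower) of 0.46 ± 0.17 and an adjusted p of 0.631. Osr1 had 0.43 ± 0.20 (adjusted p = 0.857) and Pou3f3 0.05 ± 0.16 (adjusted p = 1) in the same test. For Nkx2-3 the value was 1.10 ± 0.89 and rests on 6 and 8 counts in even-numbered embryos.

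The tooth labels were compared for the same genes with the labelled stage as a smooth curve. CPM by tooth label had also been looked at when the members were listed. The members' p-values for the tooth labels, with or without the block, therefore describe them and are not independent support. Background for this comparison was 36.2% of genes called, 18.1% in each direction. Shox2 was higher in labelled upper, with 18.8 to 31.3 CPM (median 26.4) in labelled upper and 10.7 to 14.7 CPM (median 12.0) in labelled lower. These ranges did not overlap, as for 2.89% of all genes with labelled upper higher. Its log2 difference was 1.01 ± 0.08 (SE; adjusted p = 6.60e-07, edgeR quasi-likelihood, Benjamini-Hochberg adjusted), with labelled upper higher in 8 of 8 embryos. Osr2 was also higher in labelled upper, with 107.3 to 157.0 CPM (median 133.1) in labelled upper and 72.9 to 124.6 CPM (median 90.1) in labelled lower. Its log2 difference was 0.44 ± 0.10 (adjusted p = 0.00468 in the edgeR test), and labelled upper was higher in 7 of 8 embryos. The other 7 members did not pass. Pou3f3 had a log2 difference of 0.75 ± 0.85 (adjusted p = 0.525). DESeq2 called Osr1 and Gbx2 as well (adjusted p = 0.0335 and 0.0232).

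With the embryo as a block, which compares the teeth that the labels give to one embryo, 37.6% of genes were called, 18.7% with labelled upper higher, and Pou3f3, Nkx2-3, Osr1 and Isl1 passed beside Shox2 and Osr2. Pou3f3 was higher in labelled upper in 8 of 8 embryos, by 1.18-fold to 2.28-fold, and its log2 difference was 0.77 ± 0.08 (adjusted p = 3.72e-05 in edgeR's test with the block). Osr1 was higher in labelled upper in 8 of 8 embryos, with 0.54 ± 0.12 (adjusted p = 0.00480). Nkx2-3 had 0.90 ± 0.17 (adjusted p = 0.00203), and the sign rests on the 4 odd-numbered embryos because at most 5 counts fell in any even-numbered one. Isl1 had 1.63 ± 0.54 (adjusted p = 0.0361) from 45 counts under the upper label against 15 under the lower, and lost the call without embryo 2, 3, 4, 5 or 6, up to an adjusted p of 0.110. Gsc (0.65 ± 0.25, adjusted p = 0.0670), Pitx1 (0.11 ± 0.06, adjusted p = 0.165) and Gbx2 (-1.35 ± 0.74, adjusted p = 0.176) did not pass with the block. With the odd or even set as a term in place of the block, which called 41.1% of genes, Gsc passed too (0.64 ± 0.23, adjusted p = 0.0390, edgeR). Pou3f3 and Nkx2-3, opposite among embryos, were thus both higher in labelled upper.

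**Figure D3:**
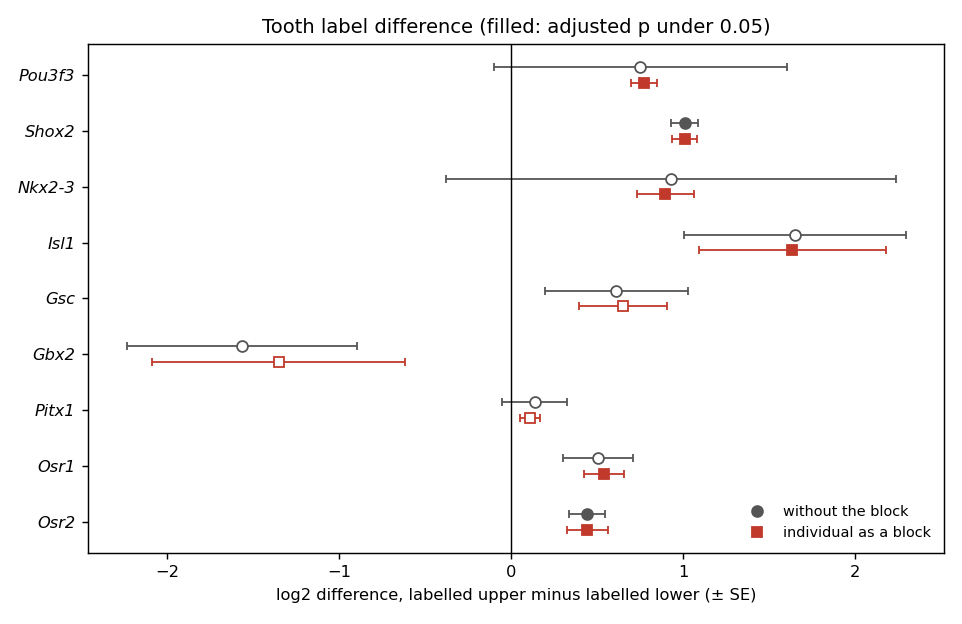
Log2 difference of labelled upper minus labelled lower with its SE (x axis) for the 9 genes (rows), gray circles without and red squares with the embryo as a block, filled where the adjusted p was under 0.05. The SE of Pou3f3 is 0.08 with the block and 0.85 without it, at values of 0.77 and 0.75.

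Of 8 genes of dental mesenchyme, 6 rose in labelled upper and none fell, where 18.1% of all genes were called in each direction. Barx1, a homeobox gene of molar mesenchyme, had a log2 difference of -0.24 ± 0.16 (adjusted p = 0.259, edgeR's test). The summed level of the list was 1417 to 2071 CPM in labelled upper and 769.7 to 1597 CPM in labelled lower. The dental epithelium list summed to 2639 to 4634 CPM in labelled upper and 3699 to 5609 CPM in labelled lower. In labelled upper 1 of 8 genes was higher (Krt14) and 4 were lower (Cdh1, Dlx3, Shh and Sp6). Sp6 averaged 213.3 and 178.6 CPM in odd-numbered and even-numbered embryos labelled upper, and 772.3 and 562.0 CPM in labelled lower. Krt5 and Epcam were not called. In the same order, Krt5 averaged 2279 and 1602 CPM, and 2301 and 1789 CPM. In bulk tissue fewer cells of a type and less RNA per cell cannot be told apart. Whether the share of mesenchyme had a part in the members' differences was not tested. The erythroid list summed to 33.9 to 146.9 CPM in labelled upper and 14.9 to 32.8 CPM in labelled lower, and the macrophage list to 57.1 to 87.8 CPM and 61.2 to 131.7 CPM in the same order.

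The same lists moved between odd-numbered and even-numbered embryos. The dental mesenchyme sum was lower in the odd-numbered embryo of all 8 pairs, at 1417 to 1676 CPM in odd-numbered and 1833 to 2071 CPM in even-numbered embryos labelled upper, and 769.7 to 1194 CPM and 1143 to 1597 CPM in the same order in labelled lower. The dental epithelium sum was higher in the odd-numbered embryo of all 8 pairs, at 3394 to 4634 CPM in odd-numbered and 2639 to 3598 CPM in even-numbered embryos labelled upper, and 4678 to 5609 CPM and 3699 to 4579 CPM in labelled lower. Krt5 gave much of this sum, with means of 2279 and 1602 CPM in labelled upper, where the sum averaged 4160 and 3182 CPM. Of the 8 genes, 2 (Krt5 and Epcam) were higher without overlap in both labels, as were 0.528% of all genes. Dlx3 went the other way, with means of 118.9 and 129.1 CPM in labelled upper and 264.0 and 277.3 CPM in labelled lower. Between neighbours the mesenchyme sum differed by 1.24-fold to 1.49-fold and the epithelium sum by 1.21-fold to 1.35-fold, and Pou3f3 by at least 10.8-fold. Pou3f3 moved with the mesenchyme sum and Nkx2-3, Gsc and Pitx1 against it, and the part of tissue composition was not tested. Among lists of other tissues, the salivary gland sum was lower in the odd-numbered embryo of all 8 pairs, at 10.1 to 13.4 CPM in odd-numbered and 12.0 to 15.2 CPM in even-numbered embryos labelled upper. In labelled lower it was 7.13 to 11.4 CPM and 12.0 to 15.3 CPM. Kcnn4, a potassium channel gene, and Sox10, also a Schwann cell gene, made up most of this sum, and Aqp5, Smgc and Prol1 were at or near 0. Bhlha15 went the other way, with means of 0.73 CPM in odd-numbered and 0.51 CPM in even-numbered embryos labelled upper, and 0.67 CPM and 0.35 CPM in labelled lower. Sox10 averaged 2.08 CPM in odd-numbered and 4.66 CPM in even-numbered embryos labelled upper, and 2.95 CPM and 5.31 CPM in labelled lower. Kcnn4 averaged 8.48 CPM in odd-numbered and 8.75 CPM in even-numbered embryos labelled upper, and 5.15 CPM and 7.70 CPM in labelled lower. The macrophage sum went opposite ways in the labels, by 1.14-fold to 1.62-fold. It was lower in the odd-numbered embryo of 4 of 4 pairs labelled upper (57.1 to 71.0 CPM in odd-numbered and 65.6 to 87.8 CPM in even-numbered embryos) and higher in 4 of 4 labelled lower (99.0 to 131.7 CPM and 61.2 to 106.5 CPM). For this difference across labels edgeR called no gene of the list and DESeq2 called C1qa, Cd68 and Csf1r (adjusted p = 0.00230, 0.0389 and 0.000301), and its part in the members' values was not tested. The palate sum, which includes Shox2 and Osr2, was higher in the odd-numbered embryo in 4 of 4 pairs labelled upper and 1 of 4 labelled lower. The sums of the skeletal muscle, bone, endothelium, erythroid and neuron lists had 4 to 6 of 8 pairs in their more frequent direction. The cartilage sum, mostly Sox9, Col2a1 and Hapln1, was higher in the odd-numbered embryo in 7 of 8 pairs. Col9a1 and Matn1 of that list were higher in even-numbered embryos without overlap in both labels, as were 1.8% of all genes. Col9a1 averaged 1.29 CPM in odd-numbered and 2.68 CPM in even-numbered embryos labelled upper, and 1.95 CPM and 3.04 CPM in labelled lower. Acan means were also higher in even-numbered embryos under both labels.

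**Figure D4:**
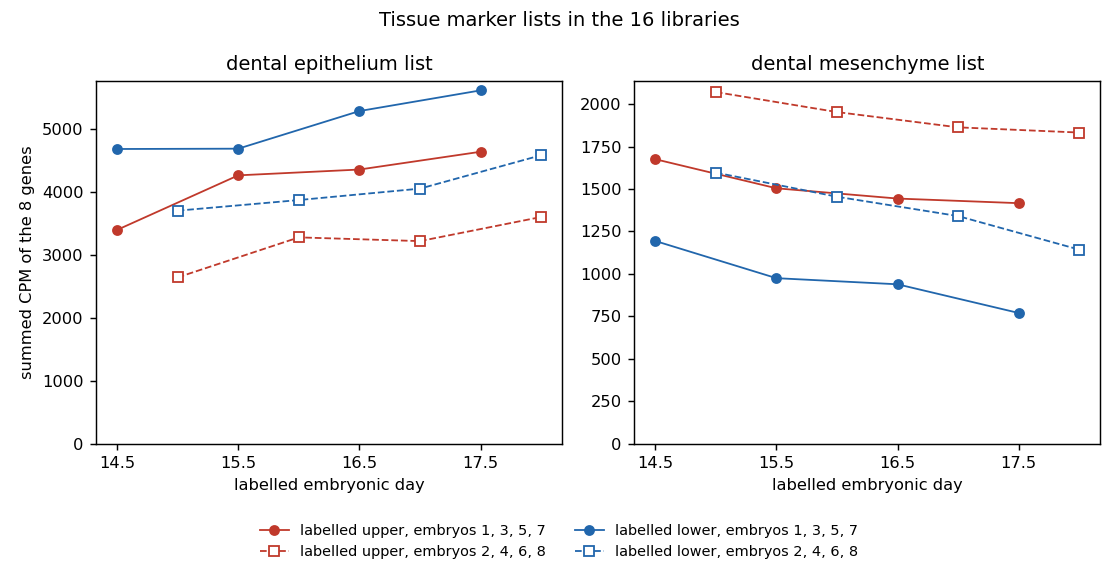
Summed CPM (y axis, from 0) of the 8 genes of the dental epithelium list (left) and the 8 of the dental mesenchyme list (right) by labelled embryonic day, colors and symbols as for the single genes. The odd-numbered embryos are above the even-numbered ones after them for epithelium and below them for mesenchyme in all 8 pairs.

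Other genes of the jaw programme are read against the 18.1% of all genes called in each direction between the tooth labels. Of 7 transcription factor genes of the upper jaw beside the members, 4 rose in labelled upper, among them Meis1, Meis2 and Nr2f2, and 1 fell (Tbx22), with a list median of 0.74 against 0.01 over all genes. Tbx22, a T-box gene needed for the palate, had a log2 difference of -4.37 ± 0.36 (adjusted p = 9.47e-07), and Meis2, a homeobox cofactor, 2.20 ± 0.23 (adjusted p = 7.81e-06, both by edgeR's test). Of 6 lower jaw genes, Hand1 and Hand2 reached at most 0.0529 and 0.0809 CPM in any library and were not tested. Dlx3, Dlx4 and Dlx5, distal-less factors, fell in labelled upper, by 1.16 ± 0.07, 1.67 ± 0.13 and 1.24 ± 0.22 on the log2 scale (adjusted p = 6.60e-08, 6.37e-07 and 0.000622 in edgeR's test), and the list median was -1.20. Dlx6 fell in labelled upper by 0.95 ± 0.20 with the embryo as a block (adjusted p = 0.00384), where it had missed the threshold without it (adjusted p = 0.0501). Of 7 endothelin pathway genes 1 was called, where 36.2% of all genes were called in either direction. The gene called was Ece1, which processes endothelin and rose in labelled upper by 0.50 ± 0.04 (adjusted p = 2.27e-06 in edgeR's test). Ednra, the receptor, rose in labelled upper with the block. Dlx6, whose antisense partner cannot be told apart without strand, was also higher in odd-numbered embryos without overlap in both labels (7.28 to 14.3 CPM in odd-numbered and 3.11 to 4.20 CPM in even-numbered embryos labelled upper; 13.0 to 21.3 CPM and 6.22 to 12.9 CPM in labelled lower).

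The genes whose pattern over 16 libraries was most like that of Pou3f3 were Cldn11, Slc10a4, Nr2f1, Gap43 and Slitrk5, found by the smallest SD of the log2 ratio to Pou3f3 among 12461 genes, members left out. The SD was 1.10 to 1.23, against 2.00 for Pou3f3 itself. Nr2f1, a nuclear receptor of the upper jaw list, measured 2.03 to 5.31 CPM in odd-numbered and 12.5 to 18.04 CPM in even-numbered embryos labelled upper, and 2.02 to 4.15 CPM and 5.37 to 9.96 CPM in labelled lower. The genes most opposite to it were Dlx6, Sgpp2, Il17re, Fam83c and Aldh3b2 (SD of the log2 product 1.43 to 1.56), and the member Gsc would stand among them at 1.45. The genes outside the members most like Nkx2-3 were Sectm1b, Sgpp2, Gpr50, Dgkk and Dlx6, with an SD of 3.83 to 4.02 against 4.50 for Nkx2-3 itself, and Gsc was nearer still at 3.74. The most opposite outside the members were Kera, Myocd, Dhrs2, Cldn11 and Wnt2 (3.10 to 3.58). Pou3f3 was more opposite to Nkx2-3 than these, with an SD of the log2 product of 2.66 and of the ratio of 6.43.

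Along the stages 2 of the 9 members were called in labelled upper and none in labelled lower. The members' CPM had also been looked at library by library, in an order that follows stage within each label, when they were listed. Their p-values for slopes and slope differences, with or without the odd or even set as a term, therefore describe them and are not independent support. The same holds for the fits with 1 embryo left out. In labelled upper the fit to stage alone called Shox2 and Gbx2 (background 6.13%, all genes). Shox2 fell by 0.19 ± 0.04 per day on the log2 scale (adjusted p = 0.0192, edgeR's test), a call lost without embryo 1 or 8 (adjusted p up to 0.106), and Gbx2 rose by 0.86 ± 0.20 (adjusted p = 0.0404), a call lost without embryo 1, 2, 3, 5, 7 or 8 (adjusted p up to 0.201). In labelled lower no member was called (background 4.11%). Osr2 came closest at -0.18 ± 0.05 per day (adjusted p = 0.0684), and DESeq2 called it (adjusted p = 0.00865), as it did Gsc in labelled upper (adjusted p = 0.0316).

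Adding the odd or even set as a term, which takes the alternation out of the error, called 13.2% of genes in labelled upper and 11% in labelled lower. In labelled upper Gsc fell by 0.50 ± 0.09 per day (adjusted p = 0.00615, edgeR's test with the set term) beside Shox2 (fell by 0.18 ± 0.03, adjusted p = 0.00803) and Gbx2 (0.92 ± 0.20, adjusted p = 0.0183, lost without embryo 7 or 8). In labelled lower Gbx2 fell by 0.78 ± 0.07 (adjusted p = 0.000317, at most 0.00421 when any one embryo was left out) and Osr2 by 0.20 ± 0.03 (adjusted p = 0.00479). Pou3f3 had -0.12 ± 0.04 (adjusted p = 0.0635) and Nkx2-3 -0.28 ± 0.09 (adjusted p = 0.0654) in labelled lower and did not pass. The slope of labelled upper minus that of labelled lower was called for no member in the fit without the set (background 1.28%), and with it for Gbx2 (1.44 ± 0.36, adjusted p = 0.0411) and Gsc (-0.54 ± 0.14, adjusted p = 0.0464; background 4.13%). Gbx2, whose slopes had opposite signs in the labels, was called in this contrast by DESeq2 also (adjusted p = 0.0180).

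**Figure D5:**
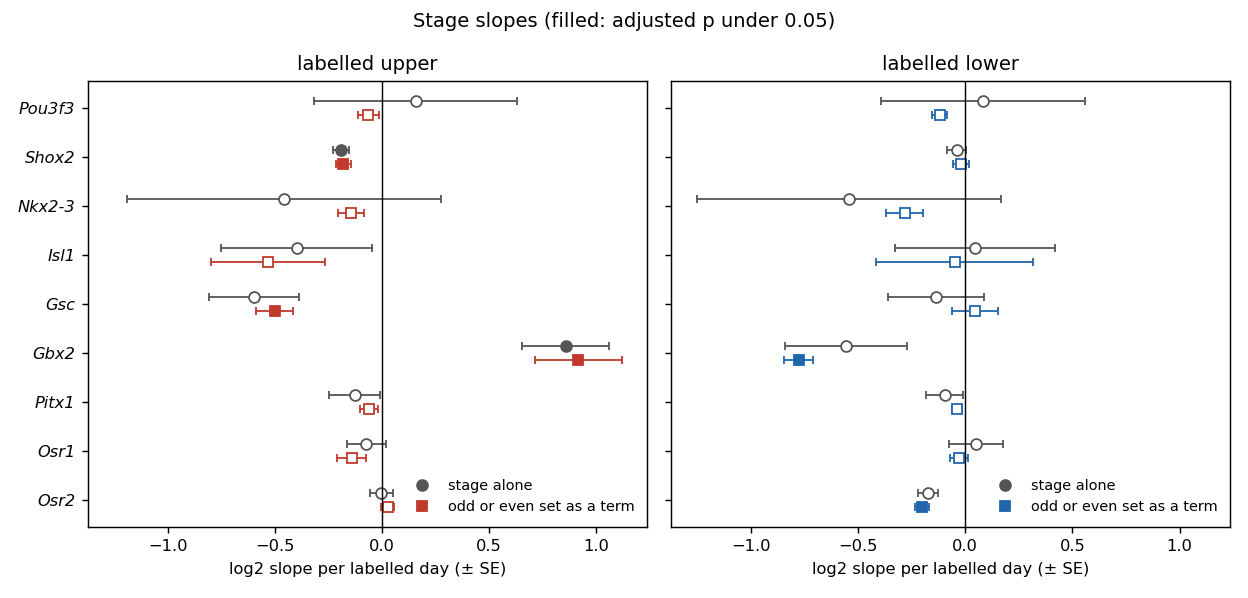
Log2 slope per labelled day with its SE (x axis) for the 9 genes in labelled upper (left) and labelled lower (right), gray circles for the fit to stage alone and colored squares with the odd or even set as a term, filled where the adjusted p was under 0.05. Gbx2 is at 0.86 and 0.92 in labelled upper and at -0.56 and -0.78 in labelled lower.

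Exons of Shox2 overlap those of Rsrc1 by 382 bases and exons of Osr1 overlap those of 1700022H16Rik by 54 bases, both on the opposite strand and both counted. The kit does not mark strand, so reads there cannot be told apart. Overlaps of Pou3f3, Gbx2 and Pitx1 with AC122898.1, D130058E05Rik, Gm47071 and Gm28760 concern genes that were not counted in these tables. In GENCODE M21 on mm10, Pou3f3 lies at chromosome 1, 42695768 to 42703176, as a single exon, and Nkx2-3 at chromosome 19, 43612325 to 43615892, in 2 exonic blocks.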

How the data were processed

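The authors deposited, for each library, whole-number counts of reads per gene symbol, not normalized. Bowtie2 2.0.2, TopHat2 2.0.6 and HTSeq 0.5.3p9 on mm10 are named in the submitters' processing notes. The annotation, the strand setting and the unit counted (read or pair) are not stated in the labels. The TruSeq V2 kit does not mark strand, per the labels' protocols. Of 23337 genes, 16287 were kept, those with 0.269 CPM or more (10 counts in a library of median depth) in at least 2 libraries. The 5 summary lines stayed out, and 12.6% to 15.1% of the total had no feature. Tests used edgeR 4.0.16 (R 4.3.3) with TMM factors of 0.982 to 1.008, the quasi-likelihood test and Benjamini-Hochberg adjustment over all genes kept at a threshold of 0.05, and DESeq2 1.42.0 as an alternative. The tooth difference was fitted with a natural spline of stage (3 degrees of freedom), slopes with a linear stage per label. The SE came from the log2 value and its F statistic. The scripts were tested on simulated data with 200 changed genes.

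Both teeth of a stage come from 1 embryo per the labels, so the numbers pair the libraries. Deviations of paired libraries correlated at 0.121 to 0.279, against a median of -0.0403 for other pairs, and 4 of 8 matched their own embryo best. The deviations were taken from the mean of each tooth label, so stage and alternation stayed in them. Paired libraries share both, and the comparison with other pairs cannot tell a shared embryo from these. No library pair of 120 was identical. The members, gene lists and tests were chosen with earlier results of these data known, among them the alternation and tooth tests of Pou3f3 and Nkx2-3. All 9 members were named, with up to 3 genes of smallest p per list and the 5 genes most like or opposite to Pou3f3 and Nkx2-3 in pattern (members left out), at a mean count of at least 50. Other genes named were chosen after their values were seen. Without the block, p-values measure the scatter of single libraries around the fit, which includes the alternation unless the odd or even set is a term. With the block they measure the scatter of the difference between the teeth within embryos.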

Additional observations from a re-analysis of the deposited data

Results flagged for a closer look

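Each member was looked at in all libraries of a label and in the odd-numbered and the even-numbered embryos of that label, 54 groups in all. In 4 of them 1 library lay apart, its gap to the nearest other taking more of the group's range than Dixon's 95% limit. Chance marks about 1 in 20 groups. Shox2 was lowest in labelled lower, even-numbered embryos at ED16.0, with 10.7 CPM. Gsc was lowest in labelled lower, even-numbered embryos at ED15.0, with 0.673 CPM. Gbx2 was highest in labelled upper, even-numbered embryos at ED18.0, with 3.92 CPM. Pitx1 was highest in labelled upper, odd-numbered embryos at ED15.5, with 310.7 CPM.
None of these values was weighed further.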

How the results depend on the processing

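The calls of Shox2 and Osr2 for the tooth labels held under both normalizations, DESeq2, no filter, the block, the set term and each embryo left out. The block moved no count of tooth calls by over 1.5 times. Counts that moved were those of stage. With DESeq2 the slope called 2046 genes in labelled upper and 1779 in labelled lower, the slope difference 599 and the difference between odd-numbered and even-numbered embryos across labels 112. With the odd or even set as a term these were 2152, 1789 and 673 for the first 3, and with the embryo as a replicate block the slope difference called 475. Leaving out each embryo in turn gave 192 to 1401 genes for the slope in labelled upper, 34 to 758 in labelled lower, 1018 to 1840 and 674 to 2036 with the set term, 14 to 136 for the slope difference and 0 to 34 for the difference across labels; the cause was not tested. These counts moved by over 1.5 times without embryo 1, 2, 6 or 8 in labelled upper, without embryo 1, 2, 4, 6, 7 or 8 in labelled lower, without embryo 1, 2 or 8 and embryo 1, 2, 7 or 8 with the set term, and without any one embryo for the slope difference.

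Slopes that turned sign with the set term were Pou3f3 at -0.0647 in labelled upper and -0.12 in labelled lower, Osr2 at 0.0255 in labelled upper, and Isl1 at -0.0481, Gsc at 0.0449 and Osr1 at -0.0299 in labelled lower. Shox2 turned to 0.00362 for the difference across labels with no filter. None of these had passed the threshold. With 1 embryo left out, values that crossed 0 ranged as follows. In labelled upper the slope was -0.10 to 0.73 for Pou3f3, -0.24 to 0.00104 for Osr1 and -0.0424 to 0.0667 for Osr2. In labelled lower it was -0.18 to 0.72 for Pou3f3, -0.0602 to 0.0112 for Shox2, -0.19 to 0.32 for Isl1, -0.35 to 0.23 for Gsc and -0.00993 to 0.12 for Osr1. With the set term it was -0.0400 to 0.0114 for Shox2, -0.26 to 0.14 for Isl1, -0.0670 to 0.24 for Gsc and -0.0684 to 0.0125 for Osr1. The slope difference was -0.0255 to 0.0850 for Pou3f3 and -0.0723 to 0.00706 for Pitx1. The difference across labels was -0.0941 to 0.21 for Pou3f3, -0.12 to 0.0903 for Shox2, -0.15 to 2.03 for Nkx2-3, -1.38 to 0.63 for Isl1 and -0.36 to 0.44 for Gsc. Depth limits Isl1 throughout and Nkx2-3 in even-numbered embryos.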
